A study of Homo sapiens with 33 samples.

Results

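MYC and the ribosome biogenesis genes are a list of 34 human gene symbols: MYC itself and 33 genes whose products transcribe ribosomal RNA, modify and cut it, or assemble the ribosomal subunits in the nucleolus. The symbols were mapped to the probe sets of an Affymetrix oligonucleotide array. Only probe sets annotated with a single symbol were used and, for each gene, the probe set with the brightest mean. Of the 34 genes, 28 had such a probe set, out of 19775 genes in all, and all 28 passed the filter on low values. NOP56, DKC1, BOP1 and PPAN lay only on probe sets that carry several symbols, and EBNA1BP2 and GNL3 matched no annotated probe set, so these 6 have no value here.

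The series profiled THP-1, a human acute monocytic leukaemia cell line, on 33 arrays in 8 groups. Ethanol was at 0.1% in all 8 groups. Experiment 1 compared, at a 40 h harvest, 6 arrays of vehicle (0.1% ethanol), 5 of all-trans retinoic acid (RA, 20 nM, added at the start and again after 16 h), 5 of tumour necrosis factor alpha (TNF, 5 ng/ml, present for the last 24 h) and 5 of RA for 40 h with TNF for the last 24 h. Experiment 2 followed RA at 20 nM, with 2 arrays after 2 h, 2 after 6 h and 3 after 16 h, beside 5 vehicle arrays that are titled as time 0 but whose protocol gives a 16 h harvest. For the time course, the vehicle reference was those 5 arrays plus 3 of the 40 h vehicle arrays, which carry the same time 0 in their titles and a 40 h treatment in their protocol, and the 40 h point was 2 arrays of experiment 1. Each array was a separate culture well of 1 cell line, so the p-values measure the spread between wells.

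MYC is a transcription factor that pairs with MAX and binds the E-box sequence CACGTG. It is known for raising the transcription of genes for ribosome production, including factors of RNA polymerase I and the nucleolar machinery that processes ribosomal RNA. In myeloid leukaemia cells MYC is associated with proliferation, and its loss accompanies differentiation, while RA and TNF each act on the maturation of such cells.

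By their array record numbers the arrays form 2 runs, here array set 1 (12 arrays, replicates 1 to 3 of experiment 1) and array set 2 (21 arrays, all the others), and the fit of experiment 1 carried the set as a covariate. Median array signal ranged from 18.9 to 45.2 scanner units. Of the myeloid markers, 8 of 9 on the array had a median above the array median, among them CEBPA at 152, FCER1G at 182 and LYZ at 78.7 times the array median, while MPO stood at 1.02 and FCGR1A, the marker under the array median, at 0.617. Summed lymphocyte markers ranged from 7.05 to 19.0 and summed erythroid and megakaryocyte markers from 3.25 to 8.63, against 233 to 909 for the myeloid list. The epithelial and fibroblast list summed to 30.4 to 109, nearly all of it PECAM1 at a median of 51.7, a gene that myeloid cells also express. These are bulk RNA samples, in which fewer cells of a type and less RNA per cell cannot be told apart.

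RefSeq promoter windows (build GRCh38.p14, 250 bases before to 50 after the start site) were at hand for 23 of the 28 measured genes. The E-box CACGTG, which reads the same on both strands, was in 11 of these 23 windows (47.8%), against 8.77% of all 27305 genes with a window and 12.7% of 10090 tested genes. The windows below are the E-boxes of the 6 genes that TNF raised and that hold one, followed by FBL, which holds one and was not called in any comparison. Each is given 5′ to 3′ with the E-box in capitals.
DDX21: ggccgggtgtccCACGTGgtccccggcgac
RRP9: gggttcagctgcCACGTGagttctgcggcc
BYSL: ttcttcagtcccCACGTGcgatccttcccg
NOP10, upstream: gtagggacactcCACGTGttttagcctgca
NOP10, near the start: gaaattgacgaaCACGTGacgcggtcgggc
WDR43: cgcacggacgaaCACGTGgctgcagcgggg
PES1: tccttggcagggCACGTGcgggaggaagtg
FBL: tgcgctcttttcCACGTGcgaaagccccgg
Counting the base before the start site as -1 and the start site as 1, the E-box of DDX21 begins at -31 (chr10:68956604-68956633, plus strand) and that of RRP9 at -5 (chr3:51941892-51941921, minus strand). The E-box of BYSL begins at 29 (chr6:41921515-41921544, plus strand), that of WDR43 at 4 (chr2:28894658-28894687, plus strand), that of PES1 at 14 (chr22:30591880-30591909, minus strand) and that of FBL at 7 (chr19:39846356-39846385, minus strand). NOP10 holds 2 E-boxes, at -170 (chr15:34343289-34343318) and -11 (chr15:34343130-34343159), both on the minus strand. A match describes the letters in the window and is no evidence of binding.

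MYC was the only member called lower with RA at 40 h, where 18 of the 28 estimates lay above 0. At 40 h of RA, MYC stood at 31.9, 23.9 and 27.3 times the array median on set 1 and at 45.3 and 40.3 on set 2. The 6 vehicle arrays ranged from 28.4 to 65.8 with a median of 57.1. The whole groups overlapped, and so did the arrays of set 1. The mean was 33.8 ± 8.94 (SD, n = 5) with RA and 51.4 ± 15.6 (SD, n = 6) with vehicle.

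The log2 fold change of MYC was -0.51 ± 0.15 (SE), a 1.42-fold lower level, with an adjusted p of 0.0379 (limma, Benjamini-Hochberg over 12393 genes). It was -0.46 within set 1 and -0.58 within set 2. This was 1 of 28 members called, beside 4.14% of all genes called either way and 1.37% called lower. The call was kept in 3 of the 11 fits that left out 1 array (without vehicle 1, vehicle 3 or RA 1), where the adjusted p ran from 0.00725 to 0.131, and the estimate stayed between -0.61 and -0.41. It was lost when either array set was fitted alone, with no set term, with no intensity trend and with the replicate block (adjusted p = 0.0675), so this call is not firm. With no intensity trend and with the replicate block the count of called members stayed at 1, but the called member was POLR1A in the first and RRP9 in the second.

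**Figure D1:**
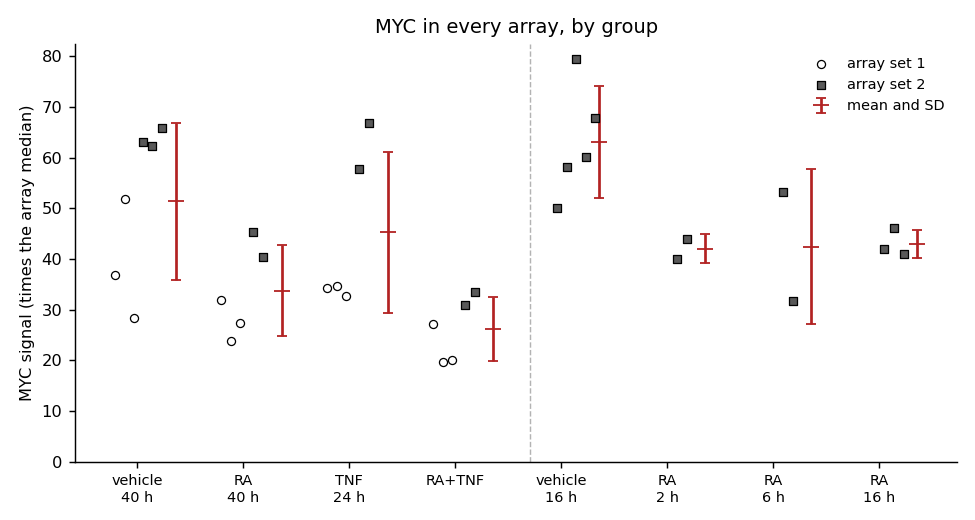
MYC signal on each array, in times the array median on a linear axis, for the 4 groups of experiment 1 (left of the dashed line) and the vehicle and RA groups of the time course (right). Circles are array set 1 and squares array set 2, and red marks are the mean and SD of each group; within experiment 1 the mean is lowest with RA plus TNF, at 26.2 ± 6.29.

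Cells that received both RA and TNF had the lowest mean MYC level of the 4 groups of experiment 1. The 5 RA plus TNF arrays stood at 27.1, 19.6 and 20.0 on set 1 and at 30.9 and 33.5 on set 2. With a mean of 26.2 ± 6.29 (SD, n = 5), they overlapped the vehicle range only through the vehicle array at 28.4. Against vehicle the log2 fold change was -0.87 ± 0.15, a 1.82-fold lower level (adjusted p = 2.36e-05, limma), with -0.78 in set 1 and -0.99 in set 2. This call was kept in all 11 fits that left out 1 array and in 10 of 10 other settings.

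TNF without RA did not lower MYC by a detectable amount. The TNF arrays stood at 34.2, 34.7 and 32.8 on set 1 and at 57.8 and 66.9 on set 2, with a log2 fold change of -0.11 ± 0.15 against vehicle (adjusted p = 0.726, limma). Of the 2 TNF arrays of set 2, the lower lay below and the higher above the 62.3 to 65.8 of the vehicle arrays of that set. Against these TNF arrays, RA plus TNF was lower by 1.69-fold (log2 fold change -0.75 ± 0.15, adjusted p = 0.000862, limma), with overlap between the whole groups.

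In the comparison of RA plus TNF with TNF, MYC was again the only called member, 1 of 28, beside 2.69% of all genes called lower and 4.6% called higher. Of the 28 member estimates, 9 lay above 0, where 6878 of 12393 genes did. The members' median log2 fold change was -0.10 against 0.04 for all genes. All 10 fits that left out 1 array kept the MYC call, but array set 1 alone (adjusted p = 0.128) and the fit with no set term did not. Under quantile normalization and under a common trimmed mean, 3 members were called lower: with quantile normalization NCL (log2 fold change -0.43) and WDR12 (-0.35) joined MYC. The RA comparison of cells without TNF and that of cells with TNF use different arrays, and MYC was called lower in both. The difference between the RA effects was -0.24 ± 0.21 (interaction, adjusted p = 0.906, limma). Against RA alone, RA plus TNF had a MYC log2 fold change of -0.36 ± 0.15 (adjusted p = 0.137), which was called under quantile normalization (adjusted p = 0.00121) and under the common trimmed mean.

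The remaining members did not follow MYC under RA. At 40 h of RA, 0 of the 27 other members were called in either direction by limma. Of these 27, 2 had an unadjusted p under 0.05, beside 1670 of 12393 genes. The estimates of the 28 members had a median log2 fold change of 0.07 against -0.00 for all genes. The pair with an unadjusted p under 0.05 was POLR1A, the largest subunit of RNA polymerase I, and RRP9, a U3 small nucleolar RNA binding protein. POLR1A stood at 3.60, 3.36 and 4.33 on set 1 and 5.73 and 3.73 on set 2 with RA, above every vehicle array, which ranged from 1.83 to 3.2043. Such a separation upward was found for 1.36% of all genes. Of its 2 other probe sets, 1 had the same sign and the other was at -0.14. Its log2 fold change was 0.77 ± 0.24 (adjusted p = 0.0603, limma), and it passed the threshold under quantile normalization (adjusted p = 0.0273), under the common trimmed mean (0.0264) and without the intensity trend (0.0253). RRP9 was at 0.77 ± 0.25 (adjusted p = 0.087), and was called with the replicate block (0.90, adjusted p = 0.0157).

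TNF raised 10 of the 28 members and lowered 0 (limma, adjusted p under 0.05), or 35.7%, where 6.69% of all genes were called higher and 4.62% lower. The members' median log2 fold change was 0.49 against -0.01 for all genes, and 26 of 28 estimates lay above 0 where 48.9% of all genes did. An unadjusted p under 0.05 was found for 19 of 28 members and for 2853 of 12393 genes. Within array set 1 the median was 0.46 and within set 2 it was 0.51, and all 10 called members had a positive estimate in each set. The called members were DDX21, RRP9, BYSL, NOP10, WDR12, NOB1, WDR43, NOP16, PES1 and NCL. They spread over the processing of the small subunit, the assembly of the large subunit, the H/ACA particle and the nucleolar scaffold, and neither RNA polymerase I nor the C/D box particle had a called member.

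**Figure D2:**
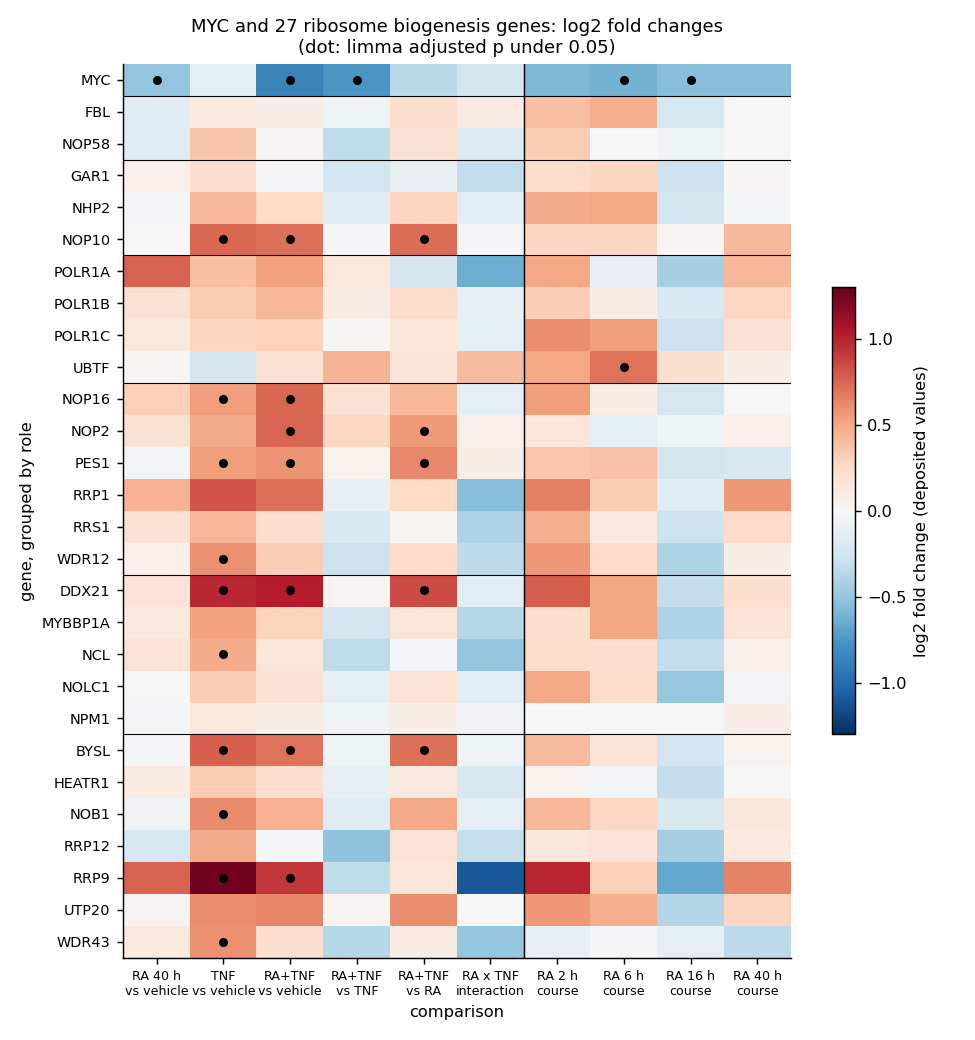
Log2 fold changes of the deposited values for MYC and 27 ribosome biogenesis genes (rows, grouped by role) in the 6 comparisons of experiment 1 and the 4 RA time points against vehicle (columns). Red is higher, blue is lower, the colour scale ends at -1.3 and 1.3, and a dot marks an adjusted p under 0.05 in limma; MYC is blue in every column, and the TNF column holds 10 dots.

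DDX21, an RNA helicase that acts in ribosomal RNA transcription and processing, had the smallest adjusted p. Its level with TNF was 56.1, 45.1 and 55.7 times the array median on set 1 and 118 and 138 on set 2. With vehicle it ranged from 21.3 to 62.2 with a median of 47.9. The log2 fold change was 0.98 ± 0.19, a 1.98-fold rise (adjusted p = 0.000231, limma), with 0.71 in set 1 and 1.29 in set 2. The whole groups overlapped, as did set 1 through a vehicle array at 58.0, and the other probe set of DDX21 gave 1.14.

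RRP9, which binds the U3 small nucleolar RNA, was read at 4.54, 5.34 and 3.10 with TNF on set 1 and at 14.1 and 7.82 on set 2. Vehicle ranged from 1.38 to 6.75 with a median of 2.74. This was the largest fold change among the members, 1.25 ± 0.25 (2.39-fold, adjusted p = 0.000517, limma). BYSL, a factor of small subunit maturation, was read at 14.0, 13.0, 16.4, 18.1 and 24.8 with TNF. Every TNF array of BYSL lay above the highest vehicle array, at 12.5 (log2 fold change 0.78 ± 0.16, adjusted p = 0.000555), as 3.0% of all genes did.

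NOP10, the smallest protein of the H/ACA particle that guides pseudouridine formation, was read at 219, 192, 212, 214 and 223 with TNF. Vehicle arrays ranged from 90.0 to 153 around a mean of 129 ± 24.2 (SD, n = 6), so the groups did not overlap. This upward separation was found for 3.0% of all genes. The log2 fold change was 0.75 ± 0.17 (adjusted p = 0.00191, limma). NOP10 was called in all 11 fits that left out 1 array and in 10 of 10 other settings, array set 1 alone included. WDR12, a partner of PES1 and BOP1 in the large subunit, rose by 0.59 ± 0.15 (adjusted p = 0.00784). Its call was kept in all 11 fits that left out 1 array. It was lost with the mean of all probe sets, in either array set alone and with no set term. NOB1, the nuclease that makes the 3′ end of the 18S RNA, rose by 0.61 ± 0.17 (adjusted p = 0.0107).

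**Figure D3:**
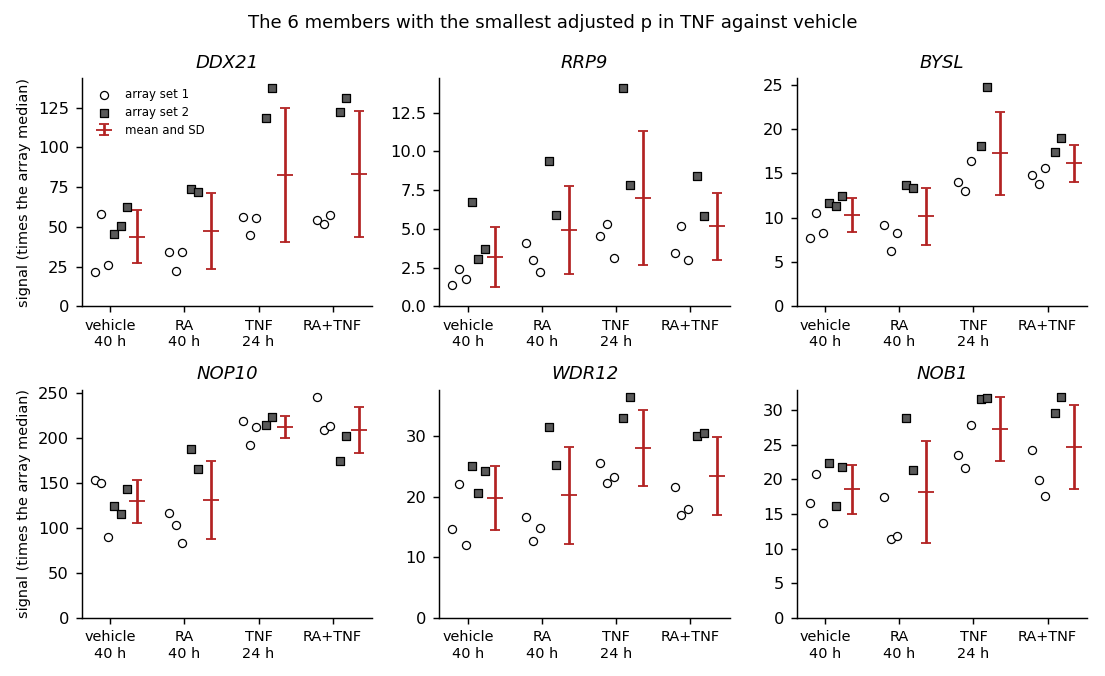
Signal of DDX21, RRP9, BYSL, NOP10, WDR12 and NOB1 on each array of experiment 1, in times the array median on linear axes that start at 0. Circles are array set 1, squares array set 2, and red marks the mean and SD; the TNF arrays of BYSL and NOP10 all lie above the vehicle arrays, and the squares of DDX21 and RRP9 lie above the circles in the TNF group.

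The other 4 calls sat close to the threshold. WDR43, a small subunit factor, had a log2 fold change of 0.59 (adjusted p = 0.0292), NOP16, a large subunit factor, 0.55 (0.0319), PES1 0.54 (0.0462) and NCL, which encodes nucleolin, 0.48 (0.0481, all limma). The other probe set of PES1 fell by 1.03 on the log2 scale, the mean of both probe sets gave -0.24, and the other probe set of NCL gave -0.09. For NOP16, 2 of 3 other probe sets had the sign of the one used. With the mean of all probe sets, NOP16, PES1 and NCL were not called, while WDR43 has a single probe set. Leaving out 1 array in turn kept WDR43 in 7 of 11 fits, PES1 in 5, NOP16 in 4 and NCL in 2 (without vehicle 2 or vehicle 6).

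By role, all 7 small subunit factors had a positive estimate and an unadjusted p under 0.05, and 4 of the 7 were called. Of all genes, 2853 of 12393 had an unadjusted p under 0.05 with TNF. UTP20, a component of the same machinery, was above every vehicle array with TNF (4.28, 4.09, 4.43, 5.25 and 5.66 against 2.71 to 3.55). Such a separation upward was found for 3.0% of all genes, and UTP20 was not called (0.60 ± 0.24, adjusted p = 0.102). Of the 6 measured large subunit factors, 3 were called, and RRP1 (0.82), NOP2 (0.49) and RRS1 (0.43) did not pass. Of the 5 scaffold proteins, DDX21 and NCL were called, and NPM1, the nucleophosmin gene, had 0.13 ± 0.16. NPM1 was read at 398 to 575 with TNF and 313 to 503 with vehicle. The 4 RNA polymerase I genes had estimates from -0.24 (UBTF) to 0.39 (POLR1A), and the C/D box genes FBL and NOP58 had 0.12 and 0.37. Of the H/ACA genes, NHP2 (0.42, adjusted p = 0.0626) and GAR1 (0.22) did not pass.

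The array set mattered for this count. The fit with the set term called 10 members, the one without it 1, set 1 alone 2 and set 2 alone 8. Leaving out vehicle array 4 or TNF array 4 left 6 called, and the range over the 11 fits was 6 to 13. With the RNA quality ratio (3′ over 5′ ACTB probe sets) as a covariate the count was 8.

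With RA present as well, members of the large subunit, small subunit, H/ACA and scaffold groups were called higher. Against vehicle, RA plus TNF called 7 members higher and 1, MYC, lower, beside 11.7% and 7.42% of all genes. The higher ones were DDX21 (1.02 ± 0.19, adjusted p = 6.58e-05, limma), BYSL (0.71 ± 0.16, 0.000911), NOP16 (0.74 ± 0.17, 0.00148), NOP10 (0.72 ± 0.17, 0.00164), NOP2 (0.76 ± 0.18, 0.00176) and RRP9 (0.92 ± 0.25, 0.00724), with PES1 at 0.59 (0.0174). NOP2, a methyltransferase of the large subunit RNA, was read at 8.53, 9.45, 8.69, 11.6 and 9.87, above every vehicle array, whose range was 3.57 to 7.85, a separation shown by 5.8% of all genes. The other probe set of PES1 gave -0.34, and 2 of 3 other probe sets of NOP16 had the sign of the one used. With the mean of all probe sets neither PES1 nor NOP16 was called. The members' median was 0.29 against 0.05 for all genes.

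This comparison and the comparison of TNF with vehicle share the vehicle arrays. The comparison of RA plus TNF with RA shares no array with TNF against vehicle, although the fit pools their spread. There, 5 of 28 members were called higher and 0 lower, or 17.9%, beside 7.63% of all genes called higher and 4.55% lower: BYSL (0.72 ± 0.16, adjusted p = 0.0018), DDX21 (0.85 ± 0.19, 0.00193), NOP10 (0.72 ± 0.18, 0.00374), PES1 (0.62 ± 0.19, 0.0218) and NOP2 (0.56 ± 0.19, 0.0433, all limma). Of these 5, 4 were also among the 10 called for TNF against vehicle, which is 80.0% of the 5 and 40.0% of the 10. For all genes called higher the shares were 56.2% and 64.2%. The estimate was above 0 in both comparisons for 23 of 28 members and for 4369 of 12393 genes.

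BYSL with RA plus TNF was read at 14.8, 13.7, 15.6, 17.4 and 18.9, and with RA alone at 9.18, 6.26, 8.25, 13.7 and 13.3, which do not overlap (3.58% of all genes). NOP10 had a log2 fold change of 1.15 in set 1 and 0.09 in set 2, since the RA arrays of set 2 already stood at 187 and 166 against 83.5 to 117 on set 1. Leaving out 1 array in turn kept BYSL, DDX21 and NOP10 in all 10 fits, PES1 in 6 and NOP2 in 2. In the other settings the PES1 call was lost in 4 of 10 and the NOP2 call in 8. Without RA array 3 or RA plus TNF array 1 the count of called members fell to 3. It was 2 in set 2 alone, 3 in set 1 alone, 1 with no set term and 3 with the RNA quality covariate. The test of the difference between the TNF effects with and without RA called 0 of 28 members (0.428% of all genes). Of its 28 member estimates, 4 lay above 0, where 6858 of 12393 genes did. An unadjusted p under 0.05 was found for 2 members, beside 910 of 12393 genes: RRP9 (-1.10, adjusted p = 0.288) and NCL (-0.51, adjusted p = 0.623, limma).

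Lists of further genes for the small and large subunits, and of MYC targets, also held genes that TNF raised. Beside 6.69% of all genes called higher and 4.62% called lower, 13 of 49 other small subunit processing factors and 11 of 47 other large subunit assembly factors were called higher, and 0 of either list lower. RRP7A (0.74, adjusted p = 0.00581) and IMP4 (0.55, 0.0106), both of the early small subunit, and WDR74 (1.03, 3.70e-05) and MRTO4 (0.86, 0.000167), both of the large subunit, had the smallest adjusted p. MYC targets outside the nucleolus had 14 of 37 called higher and 0 lower, led by PRMT1 (1.17, 1.09e-06), an arginine methyltransferase, and NME1 (0.92, 3.96e-05), a nucleoside diphosphate kinase. With RA plus TNF against vehicle, 9 of these 37 were called higher and 1, RUVBL2, lower, beside 11.7% and 7.42% of all genes. With RA plus TNF against TNF, 0 of the 37 were called higher and 4 lower, beside 4.6% and 2.69% of all genes. The 4 were GART (-0.56), IARS1 (-0.71), RUVBL2 (-0.49) and FKBP4 (-0.70). With TNF against vehicle, the other RNA polymerase I and III genes had 2 of 30 called higher, or 6.67%, near the share of all genes, and 1 lower, POLR3GL (-0.79, 0.0011).

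The genes for the cytosolic ribosomal proteins did not rise with them. Of 52 tested, out of 78 listed, 0 were called with TNF and 0 had an unadjusted p under 0.05. Their median log2 fold change was -0.09, and 4 of the 52 estimates lay above 0. None was called in any of the 10 comparisons on the deposited values, although quantile normalization called 3 lower for RA plus TNF against vehicle, 2 against TNF and 2 against RA. With RA plus TNF against vehicle, 16 of 49 small subunit factors, 13 of 47 large subunit factors and 6 of 30 other polymerase I and III genes were called higher, beside 11.7% of all genes. In the last list POLR3GL was called lower (-0.51, adjusted p = 0.0307). Among the higher genes were PNO1 (0.81, adjusted p = 0.000165), RPF2 (0.79, 0.000614) and POLR3K (0.76, 0.000604).

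**Figure D4:**
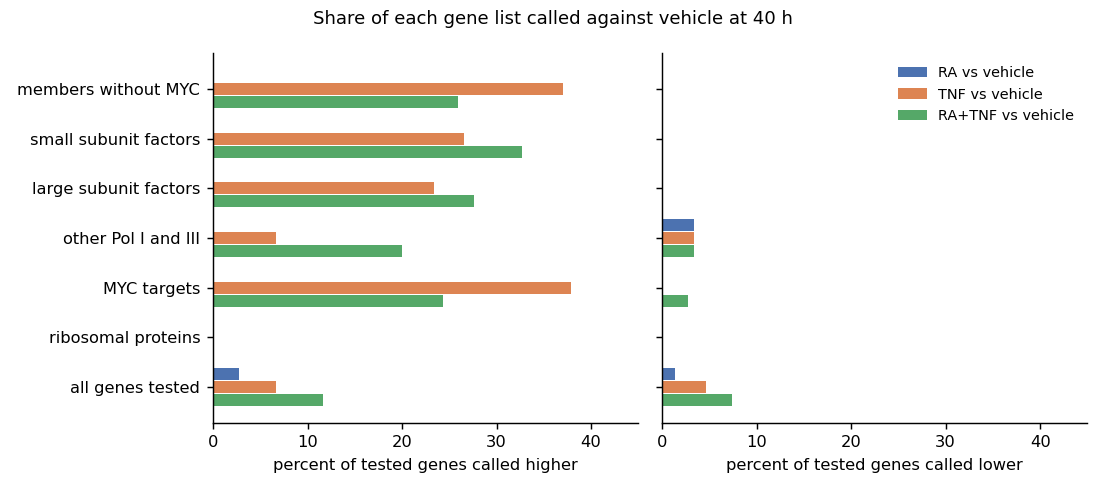
Percent of the tested genes of each list called higher (left) and lower (right) against vehicle at 40 h by limma, for RA, TNF and RA plus TNF. The members without MYC number 27, and the bars for TNF stand for 10 of 27 of these, 14 of 37 MYC targets and 0 of 52 ribosomal proteins.

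Of 10 tested MYC partners and antagonists, 1 was called higher and 1 lower with TNF, all against vehicle. With RA 1 was higher and 2 lower, and with RA plus TNF 2 were higher and 1 lower. Of all genes, 6.69% were called higher and 4.62% lower with TNF, 2.77% and 1.37% with RA, and 11.7% and 7.42% with both. The higher counts with RA and with both include MLXIPL, which passed the filter only through the groups with RA. MAX, MNT, MXD1, MLX, MLXIP and MGA were called in none of the comparisons of experiment 1. MYCL, a paralogue of MYC, was read at 14.5 to 38.5 with TNF and 7.66 to 15.8 with vehicle. It rose by 1.22 ± 0.16 with TNF (adjusted p = 4.73e-07, limma) and by 1.54 ± 0.16 with RA plus TNF (1.30e-09), and was at -0.11 with RA alone (0.879). Every fit that left out 1 array kept the TNF call, and the estimate was 1.11 in set 1 and 1.37 in set 2.

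MXI1, which competes with MYC for MAX, went the other way. It was read at 30.4 to 64.1 with vehicle, 19.3 to 30.9 with RA, 22.6 to 30.4 with TNF and 10.5 to 18.7 with both agents. Its log2 fold change was -0.81 ± 0.18 with RA (adjusted p = 0.00375), -0.67 ± 0.18 with TNF (0.0104) and -1.64 ± 0.18 with both (5.42e-09, all limma). The range with both agents lay below the other 3 ranges, and the share of all genes separated in this way is not given here. MXD3, a further antagonist, had -0.86 ± 0.25 with RA (adjusted p = 0.0428), a call kept in 2 of 11 fits that left out 1 array. MLXIPL, which binds the MAX-like partner MLX, was the higher gene with RA, at 3.66 to 8.10 times the array median against 0.109 to 0.951 with vehicle. Its means with vehicle (0.604) and with TNF (0.822) lay under the filter level of 0.882, so it was tested only through the RA groups and no fold is given.

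**Figure D5:**
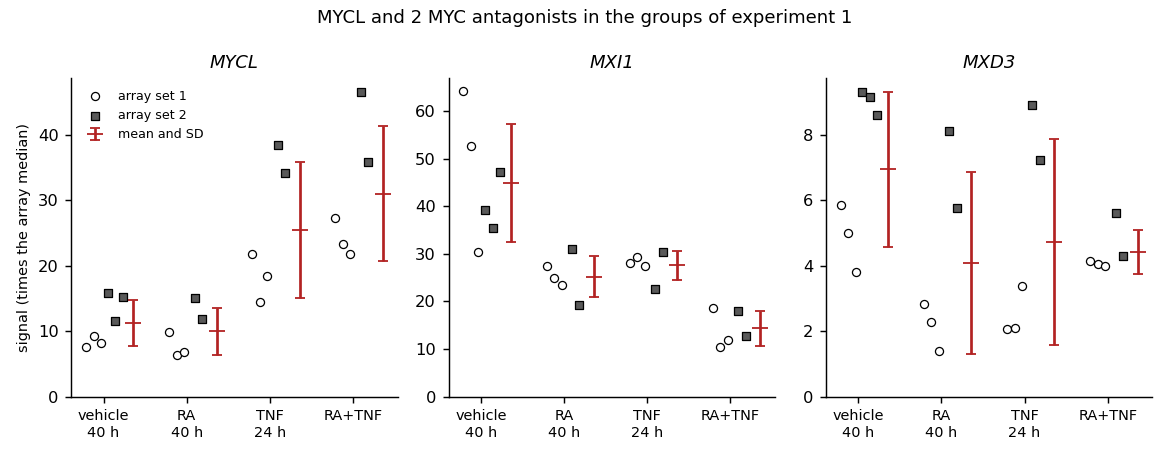
Signal of MYCL, MXI1 and MXD3 on each array of experiment 1, in times the array median on linear axes that start at 0. Circles are array set 1, squares array set 2, and red marks the mean and SD; MYCL is higher in the groups that received TNF and MXI1 is lowest with RA plus TNF.

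In the time course, the mean MYC level was below the vehicle reference at each RA time, and the fall was called after 6 h and after 16 h. The 8 vehicle arrays, harvested at 16 h or 40 h by their protocol, ranged from 50.005 to 79.5 times the array median. With no vehicle array at 2 h or 6 h, an effect of RA and one of harvest time cannot be told apart at these times. The RA arrays stood at 40.0 and 44.0 after 2 h, at 53.2 and 31.7 after 6 h, at 41.9, 46.1 and 41.0 after 16 h, and at 45.3 and 40.3 after 40 h. Only the 6 h array at 53.2 lay within the vehicle range. A full separation downward was found for 0.472% of all genes after 2 h, for 5.05% after 16 h and for 2.26% after 40 h. The log2 fold change was -0.58 ± 0.19 after 2 h (adjusted p = 0.181), -0.61 ± 0.19 after 6 h (0.0453), -0.55 ± 0.17 after 16 h (0.039) and -0.56 ± 0.19 after 40 h (0.104, limma over 12503 genes). These 4 comparisons share the vehicle arrays, and the last reuses arrays of experiment 1.

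Which of these passed depended on the settings. Besides the scaling, the 6 h call was lost in 6 of 8 other settings (no filter, mean of all probe sets, no intensity trend, replicate block, ACTB covariate, 16 h vehicle arrays only) and the 16 h call in 4 of 8, the last 4 of these. On the deposited scale, the median log2 fold change of all genes over the 4 times was 0.31, 0.38, -0.17 and 0.15. The 2 h arrays had the low medians of 22.1 and 24.4 units and the 6 h arrays 18.9 and 25.6, against 24.8 to 35.6 for the vehicle arrays at 16 h, and their ACTB 3′ over 5′ log2 ratios were 0.13 to 0.30. With the ACTB ratio as a covariate the MYC estimates were -0.63 after 6 h (adjusted p = 0.0984) and -0.54 after 16 h (0.0656), so that neither was called. The part of the array medians in the result was not tested. With quantile normalization MYC was at -0.97 after 2 h (adjusted p = 2.86e-05), -1.08 after 6 h (1.95e-06), -0.41 after 16 h (0.00884) and -0.74 after 40 h (0.000146). The common trimmed mean likewise called MYC lower at all 4 times. On the deposited scale the 6 h call was kept in 4 of 10 fits that left out 1 array (without vehicle 16 h array 1, 2 or 5, or RA 6 h array 2), and without RA 6 h array 1 the estimate was -0.24. The 16 h call was kept in 2 of 11 such fits, without vehicle 16 h array 1 or 5.

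Few of the other members were called with RA over time. At 2 h 0 of 28 were called (0.864% of all genes), and 1 was called without vehicle 16 h array 2. An unadjusted p under 0.05 was found for 10 of 28 at 2 h, beside 2321 of 12503 genes. At 6 h 2 of 28 were called (8.38% of all genes), MYC and UBTF, and at 16 h 1 of 28 (7.02%), MYC. At 40 h 0 of 28 were called (5.13%), and 2 had an unadjusted p under 0.05, beside 1812 of 12503 genes. UBTF, the factor that opens ribosomal RNA genes to polymerase I, stood at 18.2 and 11.6 at 6 h and at 8.06 to 10.8 in the vehicle reference (0.71 ± 0.21, adjusted p = 0.0337), with 17.8% of all genes separated upward in the same way. It lost the call in 7 of 8 other settings (quantile normalization 0.28, adjusted p = 0.416), and its 4 other probe sets ranged from -1.61 to 0.90, 3 of them with the same sign. Over the 4 times the members' median was 0.40, 0.24, -0.26 and 0.07 as deposited, and 0.05, -0.19, -0.11 and -0.10 after quantile normalization.

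NOLC1, a chaperone of small nucleolar ribonucleoproteins, had a log2 fold change of -0.50 ± 0.19 at 16 h (adjusted p = 0.105) and was called under quantile normalization (-0.34, adjusted p = 0.0328). Over the means of the 8 groups, the genes whose pattern was most like that of MYC among 12029 were FOSL2 (Pearson r 0.925), SGMS1 (0.908), CACNG5 (0.900), KLK1 (0.897) and ANKRD13C-DT (0.897). The members ranged from WDR43 (0.533) and GAR1 (0.499) to NPM1 (-0.482). These correlations are over 8 group means that share arrays and scaling, and describe the levels only.

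In the promoter windows, 6 of the 10 members that TNF raised and 5 of the 13 others held the E-box. MYC targets outside the nucleolus held it in 16 of 33 windows, small subunit factors in 16 of 42, large subunit factors in 13 of 42 and ribosomal proteins in 3 of 46 (6.52%). The consensus motif of NF-kB, searched on both strands, was in 2 of the 23 member windows (8.7%, NOP10 and PES1) against 7.09% of all genes and 8.99% of the tested genes.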

How the data were processed

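RNA from THP-1 wells was hybridised to Affymetrix arrays. Per the submitters' processing notes the signals came from GCOS (release: not given in the sources used here). Deposited log2 values are the log2 of the GCOS signal over each array's median: every column has a median of 0 and the signals return to steps of 0.1 units. Values printed in times the array median are 2 to the deposited value. Of 54675 probe sets, 62 controls were left out; 41091 carried 1 symbol, 1801 several and 11721 none, and 41037 matched a current gene number. Genes with a mean under 0.882 (experiment 1) or 0.891 (time course) of the array median were dropped, leaving 12393 and 12503 genes.

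Differences were fitted with limma 3.58.1 in R 4.3.3 (lmFit, eBayes with an intensity trend, Benjamini-Hochberg): 21 arrays of experiment 1 with the array set as covariate (16 residual degrees of freedom) and 17 set 2 arrays for the time course (12). The fit was also run on simulated data, for the first comparison of each fit and with no difference between array sets. That run cannot show how the set term behaves, and its outcome is not given here. The members and lists were chosen with earlier results of these data known. Full statistics are given for MYC and, per comparison, the 6 called members with the smallest adjusted p (up to 4 in the interaction), and for up to 2 called genes of each further list. Of same-numbered replicates, 0 of 30 pairs in experiment 1 and 4 of 19 in the time course correlated above 0.1, against 0 of 54 and 2 of 98 differently numbered pairs. Since not every pair passed 0.1, numbers were not used as pairs. Alternatives were quantile and trimmed-mean scaling, no filter, mean of probe sets, no trend, a replicate block, single array sets, no set term, vehicle at 16 h only, leaving out each array, and, chosen after seeing the data, the ACTB ratio as a covariate. The number of arrays limits the precision.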

Additional observations from a re-analysis of the deposited data

Results flagged for a closer look

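Of 140 groups of member values examined, 3 held 1 array far from the rest of its group, where chance alone flags about 1 group in 20. NOP2 was at 5.84 times the array median in vehicle 16 h replicate 5, with the other 4 arrays at 9.15 to 10.7. RRP12 was at 5.34 in vehicle 40 h replicate 3, with the others at 6.98 to 7.99. MYBBP1A was at 3.69 in TNF replicate 2, with the others at 6.08 to 6.76.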

How the results depend on the processing

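The number of members called moved beyond 1.5 times the count given above in the following settings. Under quantile normalization and under the common trimmed mean it was 2 for RA against vehicle, 3 for RA plus TNF against TNF, and 1, 1, 2 and 1 for the times 2, 6, 16 and 40 h, in each case with MYC among them. Array set 1 alone called 0 for RA, 2 for TNF, 5 for RA plus TNF against vehicle, 0 against TNF and 3 against RA, and array set 2 alone called 0 for RA and 2 for RA plus TNF against RA. With no array set term the counts were 0 for RA, 1 for TNF, 3 for RA plus TNF against vehicle, 0 against TNF and 1 against RA. With the ACTB ratio as a covariate, 3 were called for RA plus TNF against RA and 0 at 6 h and 16 h. At 6 h the count was 1 without the filter, and 0 with the mean of all probe sets, with no intensity trend, with the replicate block and with the 16 h vehicle arrays alone. At 16 h it was 0 with no intensity trend, with the replicate block and with the 16 h vehicle arrays alone. The cause of these changes was not tested.

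Leaving out 1 array gave 0 to 2 for RA, 6 to 13 for TNF, 7 to 12 for RA plus TNF against vehicle, 1 to 1 against TNF, 3 to 6 against RA, 0 to 0 for the interaction, and 0 to 1, 0 to 3, 0 to 2 and 0 to 0 at 2, 6, 16 and 40 h. PES1 with TNF changed sign with the mean of its probe sets, to -0.24. The replicate block, whose numbers are not known to pair the wells, called 8 members for TNF, and MYC with RA had an adjusted p of 0.0675 under it, where RRP9 was called instead. The interaction called 0 members in every setting. RA at 2, 6 and 40 h rests on 2 arrays each, and the other probe sets of PES1 and NCL had the opposite sign with TNF.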
